A study of Mus musculus with 6 samples.

Results

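The proteasome genes were represented by 43 probes of the 20868 probes on the arrays that were not controls. A probe was taken when its deposited description contained the word proteasome, which 37 did, or when its current symbol began with Psma, Psmb, Psmc, Psmd or Psme, which added 6 more. Of the 43 probes, 36 carried a gene symbol, each of a different gene, and the other 7 were named by their descriptions. The rule left out 2 further probes, which are not reported here. By function the probes fell into 7 for alpha subunits and 7 for constitutive beta subunits of the 20S core, 2 for immune beta subunits (Psmb9 and Psmb10), 7 for ATPases and 10 for other subunits of the 19S cap, 3 for 19S assembly chaperones, 3 for the PA28 activators, 1 for an inhibitor, and 3 others (a pseudogene, a protein that interacts with Psme3, and a homolog of alpha type 7).

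The proteasome is the main protease of the cytosol and nucleus and degrades proteins tagged with ubiquitin. Its barrel-shaped 20S core consists of alpha subunits, which gate the entrance, and beta subunits, of which Psmb5, Psmb6 and Psmb7 carry the catalytic sites. The 19S cap binds ubiquitin chains, removes them and unfolds the substrate with a ring of ATPases encoded by the Psmc genes. Interferon replaces the catalytic subunits with immune ones and raises the PA28 activator (Psme1 and Psme2), which changes the peptides that reach MHC class I molecules. Transcription of the subunit genes is driven by the factor Nfe2l1 (NRF1) and, under oxidative stress, by Nfe2l2 (NRF2), which bind antioxidant response elements.

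RNA of mouse liver was measured on 6 Agilent arrays with 2 colours. All mice were of the C3H/HeNCrlBR(C3He) background strain, were 39 weeks old and had received diethylnitrosamine (DEN), a liver carcinogen. The groups were tumours of WT livers after DEN and phenobarbital (PB, a tumour promoter given in drinking water), CAR-KO livers with both agents, CAR-KO livers with DEN only, and WT livers with both agents. CAR, encoded by Nr1i3, is the nuclear receptor through which PB acts in hepatocytes. The arrays formed 3 pairs, each with the dyes swapped on its second array: WT tumour over CAR-KO liver and CAR-KO over WT liver, all with both agents, and a PB pair that set CAR-KO liver with both agents over CAR-KO liver with DEN only. No array held WT tumour beside WT liver, so that comparison is the sum of the first pairs' ratios. The CAR-KO livers with both agents are part of every comparison, which are therefore not independent. The labels give neither the number or sex of the mice, nor whether RNA was pooled, nor whether a swapped pair repeated the same extracts, so the p-values measure only the spread between dye-swapped arrays, which may be technical.

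Median signals per array were 186.5 to 493.5 in Cy3 and 129.4 to 417.9 in Cy5. The median of the local background lay between 53 and 62 except on array 2 of the tumour pair, where it was 288 in Cy3 and 299 in Cy5. Nr1i3 had log2 ratios of CAR-KO over WT liver of -1.08 and -0.49 on the 2 arrays (adjusted p = 0.412) and of WT tumour over CAR-KO liver of 1.71 and 1.90 (adjusted p = 0.00194), and the sources do not say whether its probe falls in the deleted stretch. All 4 measured hepatocyte markers (Ttr, Apoa1, Cyp7a1 and Hnf4a, of 8 listed) were well above background in all 12 channels, and none passed the test in the tumour pair. All 43 proteasome probes were well above background in all 12 channels, none was saturated, and none lacked a value on any array, so all were tested. They were bright: 37 of them lay above the median brightness of the probes tested, and 32 in the brightest of 4 bins of equal size.

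Most proteasome probes had slightly higher signals in WT tumour than in CAR-KO liver, and 2 passed the test. This pair differs in tissue (tumour or liver) and in genotype (WT or CAR-KO) at once, so their parts in its ratios cannot be told apart. Of the 43 probes, 39 had a log2 ratio of WT tumour over CAR-KO liver above 0, against 49.4% of the probes tested, and their median was 0.28, against -0.01 for all probes. Only 2 rose past the threshold, an adjusted p under 0.05 from limma with Benjamini-Hochberg adjustment over all probes: Psmc5 and Psmd8. None fell. Over all probes, 2.53% were called higher and 0.839% lower, so 2 of 43 higher is near the share over all probes. At an unadjusted p under 0.05, 15 of the 43 were higher, against 11.4% of all probes, and 1 was lower, against 12.0%. In 32 of the 43 the ratio was above 0 on both arrays, against 30.6% of all probes, in 1 it was below 0 on both, and in 10 the arrays had opposite signs. Because these are bulk samples, fewer cells of a type and less RNA per cell cannot be told apart.

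**Figure D1:**
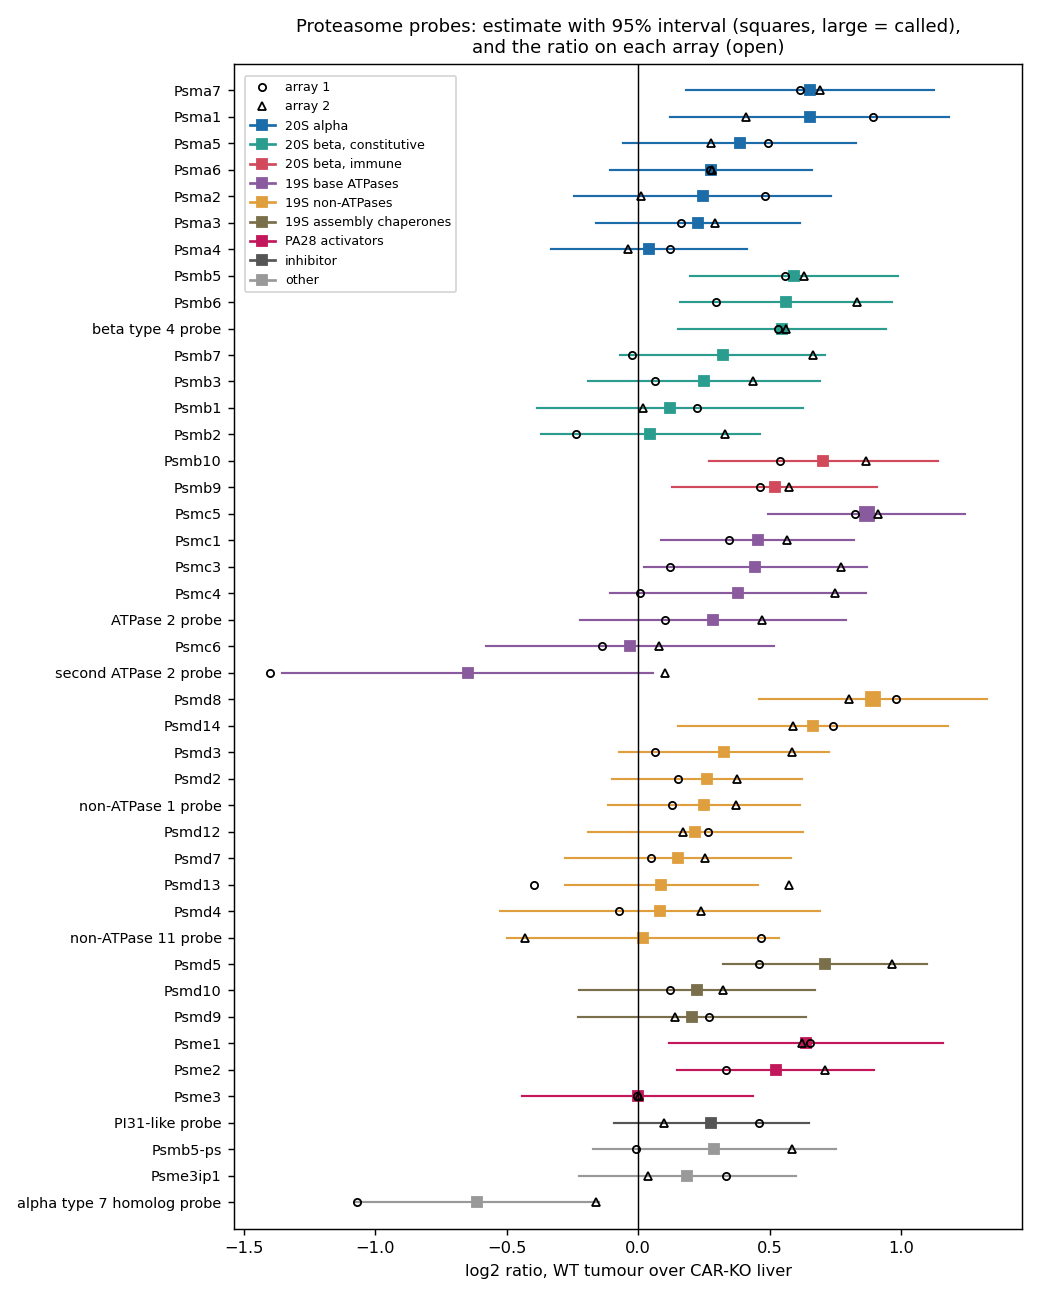
The log2 ratio of WT tumour over CAR-KO liver (x axis) for each of the 43 proteasome probes (rows, grouped by function): squares are the limma estimates over both arrays with their 95% intervals, open circles and triangles the 2 arrays. The large squares are Psmc5 and Psmd8, and 39 of the 43 squares lie to the right of 0.

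Psmc5 (chromosome 11), one of the ATPases of the ring that unfolds substrates, had log2 levels of 6.83 and 7.87 in WT tumour on arrays 1 and 2, against 6.01 and 6.96 in CAR-KO liver. WT tumour was the higher channel on each array, with log2 ratios of 0.82 and 0.91, although the levels of the groups overlapped between arrays. The estimate was 0.87 ± 0.16 (SE, 2 arrays), a 1.83-fold difference. Its 95% interval was 0.49 to 1.24 on the log2 scale and its adjusted p was 0.0331. Psmc5 was one of the dimmer members, with a mean log2 spot signal of 7.02, against a median of 7.20 over all probes tested. Array 2 of this pair was also the array with the high local background. Here and below, the 2 arrays are those of the pair. Each SE, interval and p-value rests on a spread per probe that the fit shares over all 6 arrays, the PB pair included. Psmd8 (chromosome 7), a subunit of the lid of the 19S cap, had log2 levels of 9.20 and 9.71 in WT tumour, against 8.22 and 8.90 in CAR-KO liver. The groups, with 2 levels each, did not overlap, and the share of all probes without overlap was not computed. The ratios were 0.98 and 0.80. The estimate was 0.89 ± 0.19 (SE, 2 arrays), a 1.85-fold difference with a 95% interval of 0.46 to 1.32 and an adjusted p of 0.0488. Both calls sat near the threshold: among 14 alternative ways of processing the arrays, all of which kept the sign, Psmc5 passed in 4 (adjusted p 0.00726 to 0.272) and Psmd8 in 3 (adjusted p 0.0052 to 0.301). Without array 1 of the tumour pair neither passed, and without array 2 both did, with estimates of 0.72 and 1.01 for Psmc5 and 0.63 and 1.15 for Psmd8. Both calls were also lost when either array of the CAR-KO and WT liver pair or of the DEN and PB pair was left out. Such fits have fewer arrays to estimate the spread, as does the fit without array 2 of the tumour pair. Why the calls were lost was not tested.

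The alpha subunits of the 20S core all had estimates above 0 in WT tumour over CAR-KO liver, and none passed the test. Their median log2 ratio was 0.28 and their range 0.04 (Psma4) to 0.65 (Psma7). Psma7 (chromosome 2) had log2 levels of 10.93 and 11.06 in WT tumour, against 10.32 and 10.37 in CAR-KO liver, and ratios of 0.61 and 0.69 (adjusted p = 0.127). Psma1 had a near equal estimate of 0.65 ± 0.23 (SE, 2 arrays), with ratios of 0.89 and 0.41. The constitutive beta subunits had a median of 0.32 and likewise 7 of 7 estimates above 0. Among the 3 catalytic subunits, Psmb5 (chymotrypsin-like activity) had log2 ratios of 0.56 and 0.63 and an estimate of 0.59 ± 0.17 (adjusted p = 0.112). Psmb6 (caspase-like activity) had ratios of 0.29 and 0.83 and an adjusted p of 0.126. Psmb7 (trypsin-like activity) had ratios of -0.02 and 0.67, with opposite signs, and an adjusted p of 0.286. Of the subunits of this class without a catalytic site, Psmb2 was at 0.05 and Psmb1 at 0.12, the lowest of the class, while Psmb3 stood at 0.25 and the beta type 4 probe at 0.55. The pseudogene Psmb5-ps, whose sequence may share label with Psmb5, had 0.29.

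The ATPases of the 19S base had the widest range of estimates, from -0.65 to 0.87. After Psmc5, the estimates of WT tumour over CAR-KO liver were 0.45 for Psmc1, 0.44 for Psmc3 and 0.38 for Psmc4, while Psmc6 was at -0.03. ATPase 2 was measured by 2 probes without a symbol that differed in sign. The brighter had ratios of 0.10 and 0.47 and the dimmer had -1.40 and 0.10. The dimmer was thus low on array 1 only, with an estimate of -0.65 ± 0.30 (SE, 2 arrays). Among the other 19S subunits, all 10 estimates were above 0, with a median of 0.23. Next after Psmd8 was Psmd14 (the deubiquitinase of the lid), with ratios of 0.74 and 0.59 and an adjusted p of 0.141. The ubiquitin receptor Psmd4 was at 0.08, and the large scaffold Psmd2 at 0.26. The others of this class lay between 0.02 (the non-ATPase 11 probe, whose arrays gave 0.47 and -0.43) and 0.33 (Psmd3), with the non-ATPase 1 probe, Psmd7, Psmd12 and Psmd13 within that range.

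The chaperones that assemble the 19S base are not part of the finished proteasome. Psmd5 (chromosome 2) had log2 levels of 8.32 and 8.81 in WT tumour, against 7.86 and 7.84 in CAR-KO liver, and its ratios of 0.46 and 0.96 gave an estimate of 0.71 ± 0.17 (SE, 2 arrays, adjusted p = 0.069). Psmd10 and Psmd9 had 0.22 and 0.20. The chaperones of 20S assembly measured beside them, which are no members, had 0.51 (Psmg1), 0.29 (Psmg2) and 0.11 (Pomp), and none of the 3 passed. The probe for an inhibitor like PI31 had ratios of 0.46 and 0.10 and an estimate of 0.28. Psme3ip1, which encodes an interactor of Psme3, stood at 0.19. The alpha type 7 homolog probe was the member with the lowest p on the low side, with ratios of -1.07 and -0.16 and an estimate of -0.61 ± 0.20 (adjusted p = 0.137).

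The 4 subunit genes known for their response to interferon had ratios of WT tumour over CAR-KO liver above 0 on both arrays, and none passed the test. Psmb10 (chromosome 8), which replaces Psmb7, had log2 levels of 10.13 and 10.35 in WT tumour, against 9.59 and 9.48 in CAR-KO liver, and an estimate of 0.70 ± 0.19 (SE, 2 arrays, adjusted p = 0.0964). Psmb9 (chromosome 17), which replaces Psmb6, had levels of 9.23 and 9.28 in WT tumour, against 8.77 and 8.70 in CAR-KO liver, and an estimate of 0.52 ± 0.17 (adjusted p = 0.137). Neither gene had overlapping levels between the groups. With 2 levels per group this says little, and the share of all probes without overlap was not computed. Psme1 and Psme2, whose products form the cytosolic PA28 ring and whose genes both lie on chromosome 14, had ratios of 0.65 and 0.62 (adjusted p = 0.155) and of 0.33 and 0.71 (adjusted p = 0.126). Psme3, which encodes a separate nuclear activator, had ratios of -0.01 and 0.00 and an estimate of -0.00 with a 95% interval of -0.44 to 0.44, and its sign turned to positive under 3 alternatives, median centring among them. The median of Psmb9, Psmb10, Psme1 and Psme2 was 0.58, against 0.32 for the constitutive beta subunits. In WT tumour over WT liver, the indirect comparison, these medians were 0.30 and 0.28. The difference between them was not tested.

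Other genes of the interferon response and of antigen presentation were measured in the same pair. Of 8 measured genes of the interferon gamma response, 3 rose: the chemokine genes Cxcl10 (1.51 ± 0.21, adjusted p = 0.0106) and Cxcl9 (1.02 ± 0.16, adjusted p = 0.0167) and the GTPase gene Ifi47 (1.05 ± 0.16, adjusted p = 0.0164, SE, 2 arrays each). The transcription factor gene Irf1, at 0.48, and the MHC class II regulator gene Ciita, at -0.61, did not pass. None of 8 measured genes of MHC class I antigen processing passed, and their median was 0.12. Tap1, the peptide transporter gene that shares a promoter region with Psmb9, had ratios of -0.56 and 0.16. None of 5 general leucocyte markers, 5 T and NK cell markers, 4 B cell markers, 8 macrophage markers and 4 neutrophil markers passed, with list medians of 0.22, 0.01, 0.06, 0.13 and -0.29. None of 5 endothelial and 3 stellate cell markers passed either (medians -0.05 and -0.02). Of 3 cholangiocyte markers (median 0.03) only Krt19, a keratin, rose (1.13 ± 0.16, adjusted p = 0.0135), a call that held in 7 of 13 alternatives. The part of other cell types in the proteasome ratios was not tested.

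The factors known to drive proteasome genes, and their other targets, were measured in the same pair. Nfe2l2 rose in WT tumour over CAR-KO liver, with ratios of 1.35 and 1.33 and an estimate of 1.34 ± 0.21 (SE, 2 arrays, adjusted p = 0.019), a 2.53-fold difference. Nfe2l1, the factor of the proteasome recovery response, had ratios of 0.05 and 0.27 and did not pass (adjusted p = 0.576). Of the genes of their small Maf partners none passed: Mafg had 0.65 (adjusted p = 0.0799), Mafk had ratios of -0.46 and 0.79 with opposite signs, and Maff was below 0 on both arrays, with ratios of -0.90 and -0.21 and an estimate of -0.55 (adjusted p = 0.189). The NRF2 inhibitor gene Keap1 had 0.15. Of 8 measured NRF2 targets 5 rose, with a list median of 1.33: the quinone reductase gene Nqo1 (2.18, adjusted p = 0.00106), the UDP-glucose dehydrogenase gene Ugdh (2.11, adjusted p = 0.00129), the glutathione peroxidase gene Gpx2 (1.77, adjusted p = 0.00204), the glutathione transferase gene Gsta1 (1.48, adjusted p = 0.00438) and, named after its value was seen, the thioredoxin reductase gene Txnrd1 (1.18, adjusted p = 0.0104). The median of the proteasome probes was 0.28 in the same pair. Whether NRF2 raised these targets was not tested. All 8 were below 0 in CAR-KO over WT liver, with a median of -0.43. In WT tumour over WT liver, the indirect comparison, none of the 8 NRF2 targets passed. Their median there was 0.78, their range -0.99 to 1.98, and 7 were above 0. Nfe2l2 had 1.06 in that comparison (adjusted p = 0.462 from limma).

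Genes that act upstream of the proteasome in protein breakdown had list medians of WT tumour over CAR-KO liver between -0.10 and 0.34. None of 17 measured ubiquitin-activating and conjugating enzymes passed, with a median of 0.34 and 13 estimates above 0. None of 4 ubiquitin genes (median 0.18) and none of 7 shuttle factors and proteasome deubiquitinases (median 0.11) passed. Of 7 genes of p97, its cofactors and the degradation of endoplasmic reticulum proteins, Herpud1, a component of that degradation, fell (-0.78 ± 0.15, SE, 2 arrays, adjusted p = 0.0392). Under median centring its estimate was -0.15 and it did not pass. The cytosolic chaperones, which help proteins to fold and refold, had the highest list median (0.64) beside the NRF2 targets. By limma 4 of 11 rose: Dnajb1 (1.43, adjusted p = 0.00832), Hsp90aa1 (1.22, adjusted p = 0.0216), Bag3 (0.91, adjusted p = 0.0226) and Hspa8 (0.77, adjusted p = 0.0399). Among the alternatives Hspa8 passed in 5 of 14 (adjusted p up to 0.383), Bag3 in 7 of 14 (up to 0.272) and Herpud1 in 4 of 14 (up to 0.514), and all kept their sign.

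**Figure D2:**
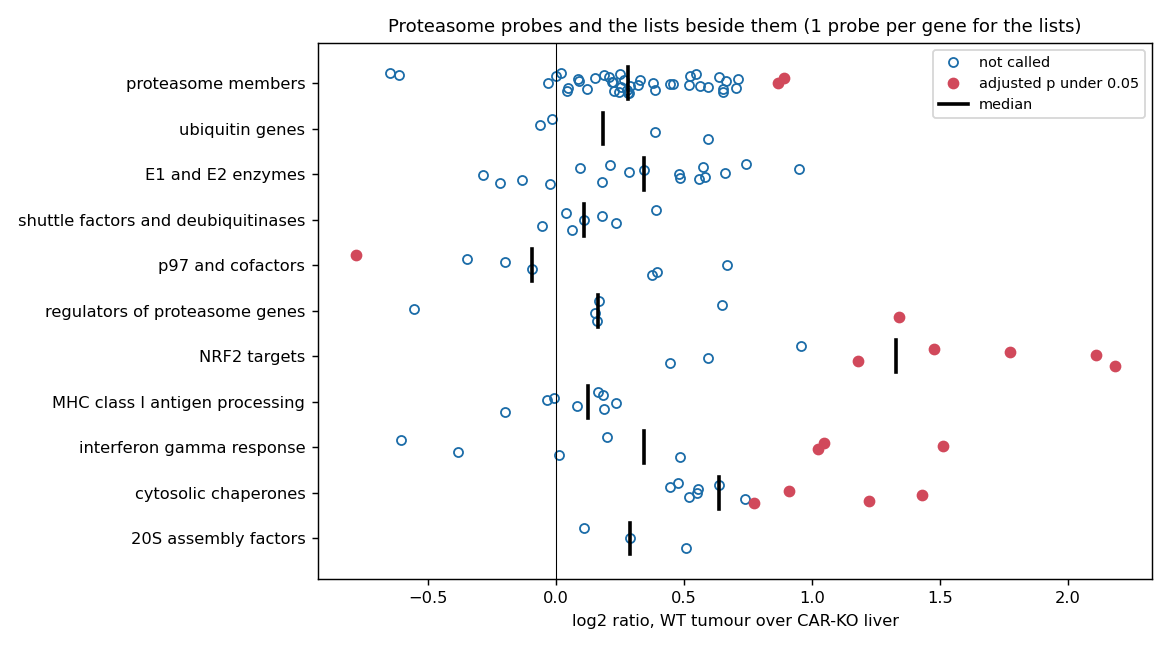
The log2 ratio of WT tumour over CAR-KO liver (x axis) for the 43 proteasome probes and for each gene of 10 lists (rows): filled points passed an adjusted p under 0.05, open points did not, and black bars are medians. The proteasome probes have a median of 0.28 with 2 filled points, and the NRF2 targets a median of 1.33 with 5 filled points.

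Promoters were taken from RefSeq (GRCm38.p6, 250 bases before to 50 after each annotated start), where 29 of the 36 genes with a symbol had an entry. The windows printed here show the 2 genes that passed the test in WT tumour, 3 genes whose promoter holds the antioxidant response element TGACNNNGC near the start, and Psme1, whose promoter holds the interferon-stimulated response element, GAAA and GAAA with 2 bases between them. Each runs from 100 bases before to 30 bases after the annotated start, 5′ to 3′ on the strand of the gene, and capitals mark the motif.
Psmc5: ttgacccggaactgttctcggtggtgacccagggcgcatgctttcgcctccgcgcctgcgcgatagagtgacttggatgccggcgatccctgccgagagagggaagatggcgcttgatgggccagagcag
Psmd8: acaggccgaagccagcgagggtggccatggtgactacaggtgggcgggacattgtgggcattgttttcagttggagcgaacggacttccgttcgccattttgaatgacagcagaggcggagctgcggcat
Psmb5: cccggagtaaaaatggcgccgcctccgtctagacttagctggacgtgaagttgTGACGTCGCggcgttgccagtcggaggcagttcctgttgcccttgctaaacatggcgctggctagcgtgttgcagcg
Psmb6: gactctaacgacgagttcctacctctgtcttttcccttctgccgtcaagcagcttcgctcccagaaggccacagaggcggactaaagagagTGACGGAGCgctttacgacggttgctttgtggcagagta
Psmd9: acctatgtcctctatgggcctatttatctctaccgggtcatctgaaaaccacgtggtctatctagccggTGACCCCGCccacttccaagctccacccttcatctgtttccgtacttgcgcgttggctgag
Psme1: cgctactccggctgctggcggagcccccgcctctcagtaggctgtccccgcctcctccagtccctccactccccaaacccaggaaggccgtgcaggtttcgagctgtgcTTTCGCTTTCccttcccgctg
The windows lie at chr11:106256085-106256214 (plus strand) for Psmc5, chr7:29180644-29180773 (minus strand) for Psmd8, chr14:54617966-54618095 (minus strand) for Psmb5, chr11:70525257-70525386 (plus strand) for Psmb6, chr5:123228090-123228219 (plus strand) for Psmd9 and chr14:55578394-55578523 (plus strand) for Psme1.

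Searched on both strands of the whole 300 bases, TGACNNNGC was found in 5 of the 29 genes (17.2%), against 14.0% of all genes in the table. These were Psmb5, Psmb6, Psmc6, Psmd9 and Psmd12. Their estimates of WT tumour over CAR-KO liver had a median of 0.22 and ranged from -0.03 to 0.59. The 24 genes with a promoter and without the motif had a median of 0.38. The interferon-stimulated response element was found in 4 of the 29 (13.8%, against 3.99% of all genes), namely Psmb3, Psmd4, Psmd9 and Psme1. In the Psme1 window it stands on the opposite strand and begins 10 bases after the start. The gamma-activated sequence TTCNNNGAA was found in 1 (Psmd2), against 9.55% of all genes. The CCAAT box, a general promoter element, was found in 13 of the 29, against 41.1% of all genes. CCAAT and the longer motifs do not contain one another. A match is a run of letters and not a measured binding site.

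In CAR-KO over WT liver after DEN and PB, proteasome ratios were small and mostly below 0, and none of the 43 passed the test, where 0.101% of all probes did. At an unadjusted p under 0.05 the count was 0 of 43 in either direction, against 471 of the 20743 probes tested. The estimate was below 0 for 35 of the 43, against 45.0% of all probes, and the median was -0.11, against 0.02. On both arrays the ratio was below 0 for 22 of the 43, against 20.5% of all probes. The arrays differed in this: 37 of the 43 were below 0 on array 1, with a median of -0.22, and 26 on array 2, with a median of -0.04. Under median centring the median of the members was -0.02 and 18 of the 43 were above 0.

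Among the lowest estimates of CAR-KO over WT liver were those of immune subunits and PA28, with Psmb9 and Psme1 lowest of the 43. Members of other classes lay between Psme1 and Psme2: Psma1 (-0.31), the probe for an inhibitor like PI31 (-0.27) and Psmd14 (-0.25). Psmb9 had log2 levels of 8.48 and 8.50 in CAR-KO liver, against 9.15 and 8.55 in WT liver, and ratios of -0.67 and -0.06. Psme1 had levels of 9.88 and 9.95 in CAR-KO liver, against 10.27 and 10.21 in WT liver, and ratios of -0.39 and -0.26. Psmb10 and Psme2 had ratios of -0.38 and -0.16 and of -0.23 and -0.25. All 4 genes were lower in CAR-KO liver on both arrays, and their 95% intervals all included 0, the narrowest miss being -0.76 to 0.02 for Psmb9. Psmb6 and Psmb7, which Psmb9 and Psmb10 replace, stood at -0.15 and -0.04, the other catalytic subunit Psmb5 at -0.08, and Psme3 at 0.06. Psma1, the alpha subunit with the lowest estimate, had ratios of -0.32 and -0.29. Psmc5 and Psmd8 stood at -0.11 ± 0.16 and -0.18 ± 0.19 (SE, 2 arrays). In the same pair none of the NRF2 targets passed, and all 8 were below 0 (median -0.43), as were all 11 measured cytosolic chaperones (median -0.22).

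WT tumour over WT liver, the indirect comparison, gave a median proteasome ratio of 0.22, between the 0.28 and -0.11 of the ratios it sums. No probe on the arrays passed the test (0.0%). At an unadjusted p under 0.05, 939 of the 20743 probes tested were higher and 798 lower. Of these, 2 of the higher and 1 of the lower were among the 43 proteasome probes. Of the 43, 38 were above 0, against 49.1% of all probes. Psmc5 had 0.76 ± 0.23 (SE, adjusted p = 0.511 from limma) and Psmd8 had 0.71 ± 0.26 (adjusted p = 0.584). Both were the members with the highest estimates here too, in a comparison that uses the same tumour arrays. Psmb5 had 0.51, Psmb10 0.43, Psme1 0.31, Psme2 0.28 and Psmb9 0.15. The alpha type 7 homolog probe had the lowest value, -0.85 ± 0.28.

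**Figure D3:**
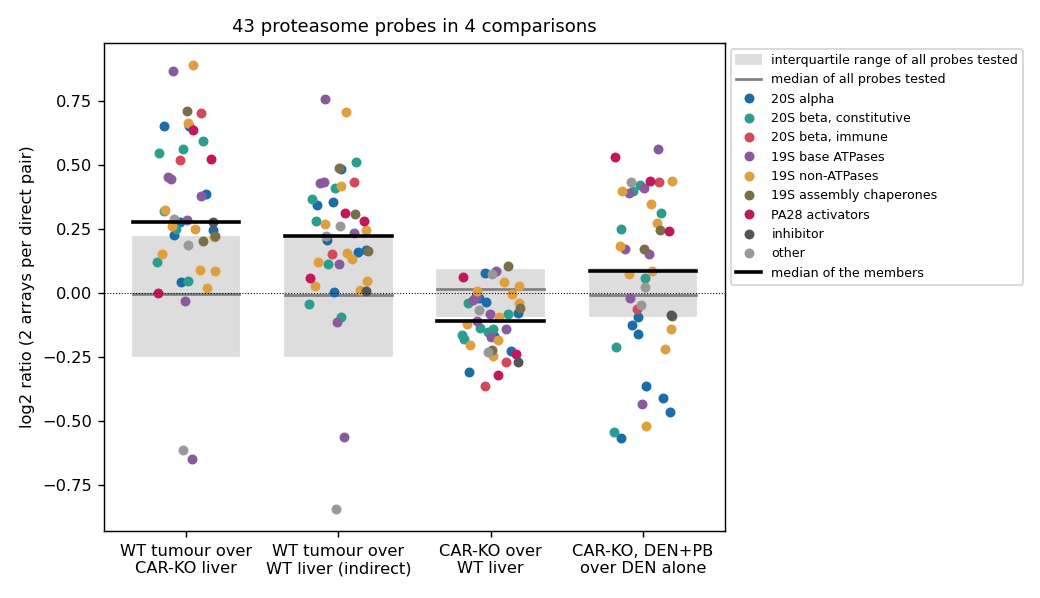
The log2 ratios (y axis) of the 43 proteasome probes, coloured by function, in the 4 comparisons (x axis), with grey bands for the interquartile range of all probes tested and bars for the medians. The medians of the members are 0.28, 0.22, -0.11 and 0.08 from left to right.

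PB, tested within CAR-KO livers against DEN alone, moved no proteasome gene past the threshold, nor any other probe (0.0%, limma). At an unadjusted p under 0.05, 458 of the 20742 probes tested were higher and 107 lower. Of these, 3 of the higher and 3 of the lower were among the 43 proteasome probes. Of the 43, 25 had an estimate above 0, against 47.7% of all probes, and the median was 0.08. The 2 arrays of this pair did not give the same values. On array 1 the members lay between -0.51 and 0.24, with 1 beyond 0.5 either way, against 2.27% of all probes. On array 2 they lay between -1.21 and 1.38, with 25 of 43 beyond 0.5, against 13.2% of all probes. In 35 of the 43 the arrays had opposite signs, against 63.1% of all probes. Across the 43 probes the 2 arrays correlated at -0.58 (Pearson's r over probes that share both arrays, a description), where the 2 arrays of the tumour pair correlated at 0.37 and those of the CAR-KO and WT liver pair at -0.14. Over all probes these correlations were -0.35 in the PB pair, 0.39 in the tumour pair and 0.03 in the CAR-KO and WT liver pair, so that of the PB pair was below 0 over all probes too.

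On array 2 of the PB pair the low and high members fell partly along the classes. All 7 alpha subunits were below 0 on that array, Psma1 at -1.21, Psma2 at -1.14, Psma5 at -0.82 and Psma7 at -0.78 among them, against 0.07, 0.21, -0.00 and 0.05 on array 1. Psmb1 (-1.11), Psmd14 (-1.11) and Psmc6 (-0.96) were also low on array 2. Psmd4 (1.38), Psmc4 (1.26), the brighter ATPase 2 probe (1.16), Psmc3 (1.04) and Psme1 (1.01) were high on it, and on array 1 these 5 lay between -0.51 and -0.13. The estimates over both arrays ranged from -0.57 to 0.56, and all adjusted p-values were near 1. What sets array 2 apart was not tested. Psmc5 (-0.28 and 0.24) and Psmd8 (0.03 and 0.67) were not among the extremes.

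**Figure D4:**
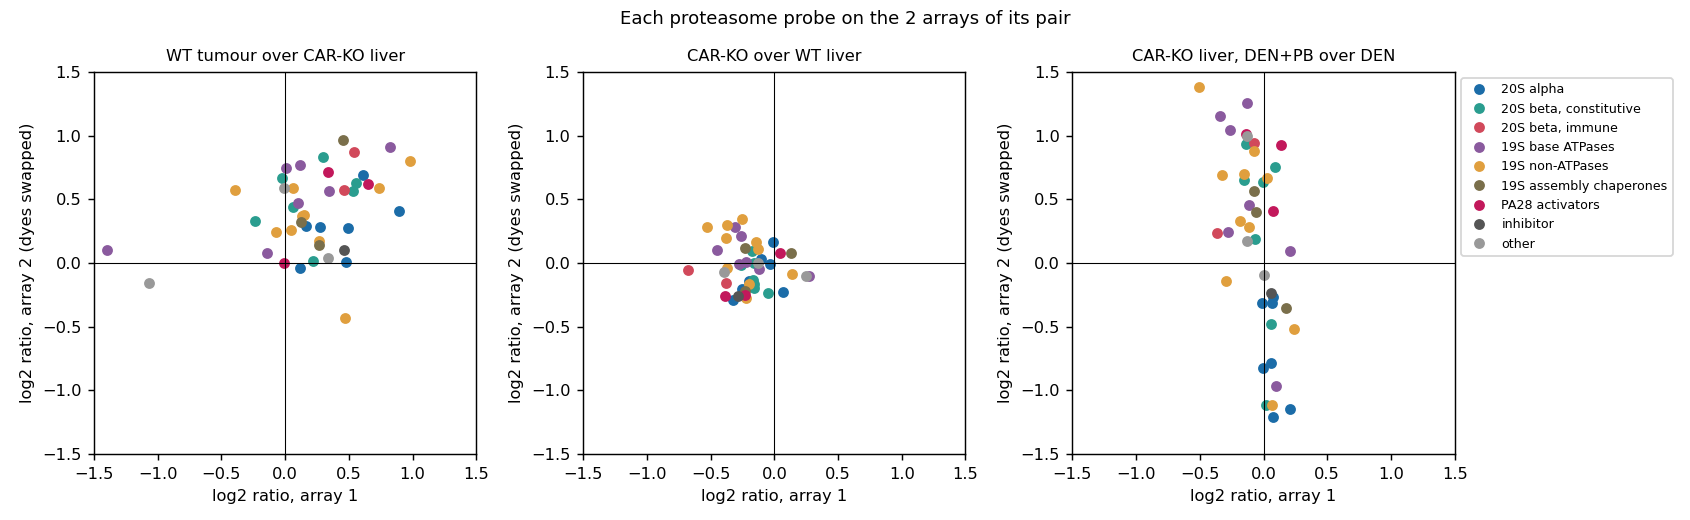
The log2 ratio of each of the 43 proteasome probes on array 1 (x axis) and on array 2, with the dyes swapped (y axis), for the 3 pairs. In the tumour pair 32 points lie above 0 on both axes, and in the PB pair the points spread from -1.21 to 1.38 on array 2 and from -0.51 to 0.24 on array 1.

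Because most members are bright, the scaling of the arrays bears on their level. Loess, the main scaling, fits and subtracts a trend of the ratio with brightness on each array. Under it the 32 members in the brightest bin had a median ratio of WT tumour over CAR-KO liver of 0.32. All probes of that bin had -0.01, and all probes of the dimmest bin -0.11. Under median centring, which keeps such a trend, the same 32 members had 0.81, against 0.38 for all probes of the brightest bin and -0.32 for the dimmest bin. Under median centring 28 of the 43 members were called higher and 0 lower, with a median of 0.76, and over all probes 2370 were called higher and 1763 lower (57.3% higher), against 524 higher and 174 lower (75.1% higher) under loess. In the 6 members of bin 2 the medians were 0.12 under loess and -0.01 under median centring. The medians of the members stayed above 0 in WT tumour over CAR-KO liver under all 14 alternatives.

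**Figure D5:**
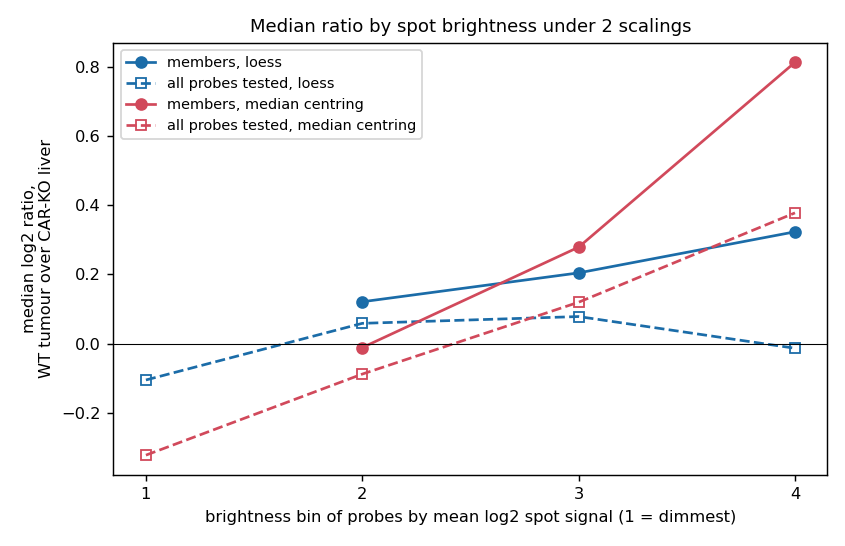
The median log2 ratio of WT tumour over CAR-KO liver (y axis) by brightness bin (4 bins of equal size, 1 dimmest) (x axis), for the members (filled, solid) and all probes tested (open, dashed) under loess and under median centring; no member lies in the dimmest bin. In the brightest bin the members stand above all probes under both scalings, 0.32 against -0.01 and 0.81 against 0.38.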

How the data were processed

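RNA of liver and liver tumour was measured on 6 arrays in 3 dye-swapped pairs, grouped by the labels. The deposited scanner files give each spot's mean pixel intensity and the median intensity around it, as the authors' scanner read them and not normalized. They also hold processed intensity values and a log10 ratio of red over green, made by the authors with Agilent Feature Extraction. Per the file headers 5 arrays were read with version 7.1.1 and 1 (array 2 of the tumour pair) with 7.5.1; the submitters' processing notes name 7.5. The deposited value table equals that log10 ratio.

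Signals were corrected with normexp (offset 50), scaled by loess within each array (controls and outlier spots at weight 0), spots with an outlier flag were left out, and spots of 1 probe were averaged. Log2 ratios of all 6 arrays were fitted together with limma 3.58.1 (R 4.3.3, lmFit and eBayes), with a dye effect per probe, on the 20744 probes with a signal well above background on at least 2 arrays. This left 2 residual and 5.48 prior degrees of freedom. Ratios per array still hold the dye effect, which has opposite sign on the 2 arrays and cancels in the estimate. Levels are log2 channel signals after loess and Aquantile scaling. P-values are 2-sided and adjusted by Benjamini-Hochberg over all probes tested. The fit was tested on simulated data. The number of arrays limits the precision.

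Symbols came from accessions or descriptions matched to RefSeq (9923 probes with a symbol). A gene with several probes is given by its brightest. The members and the lists were chosen with earlier results of these data known. Members named by rule were those called in any comparison, of each class with none called the one with the largest tumour ratio, the immune, PA28 and catalytic subunits, and of each list up to 4 called genes with the largest ratios; other members were singled out after their values were seen. Alternatives were the software's processed signals, no background subtraction, median centring, 2 other filters, no dye effect, array weights, each pair on its own, each array left out. No batch term could be fitted for the software version, since 1 version holds 1 array.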

Additional observations from a re-analysis of the deposited data

How the results depend on the processing

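The medians of the proteasome probes kept their sign in all 4 comparisons under every alternative run. For WT tumour over CAR-KO liver the median moved to 0.76 under median centring, and to 0.72 for WT tumour over WT liver. It was 0.28 to 0.39 when 1 array was left out. The 2 calls among the members became 0 with the processed signals, without background subtraction, without a dye effect, with array weights and with each pair on its own, 1 without a filter, 28 under median centring, and 0 to 8 with 1 array left out. The 8, of which 2 were lower, came without array 2 of the tumour pair, and WT tumour over WT liver then had 4 calls among the members and 0 to 4 over all left-out arrays. In WT tumour over CAR-KO liver Psme3 changed sign without background subtraction (0.00109), under median centring (0.53) and over the left-out arrays (-0.20 to 0.20). The causes were not tested. The mean of a gene's probes was not run, because each member gene with a symbol had 1 probe.

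Counts over all probes moved more. CAR-KO over WT liver had 21 calls, 0 with the processed signals (1129 at an unadjusted p under 0.05, limma), 95 with array weights, 87 with each pair on its own and 4 to 94 with 1 array left out. WT tumour over CAR-KO liver had 698, and 0, 4133, 236 and 62 with the processed signals (2843 unadjusted), median centring, array weights and each pair on its own, and 285 to 4707 with 1 array left out. DEN and PB over DEN alone had 0, and 1 with array weights or the strict filter, and 0 to 6 with 1 array left out. WT tumour over WT liver had 0, 47 under median centring and 0 to 2164 with 1 array left out. The highest of these counts came without array 2 of the tumour pair (for CAR-KO over WT liver and the PB pair, without either tumour array), and the lowest for WT tumour over CAR-KO liver without either PB array. Single genes named kept direction and side of the threshold in 307 cases, lost the call in 83, gained it in 15 and changed sign in 3, all of them Psme3. Where an array was left out, its pair rested on 1 array assumed to vary like the others. Background on array 2 of the tumour pair was higher than on the others, which limits dim probes there. No paired analysis was possible because the labels carry no replicate numbers that link arrays of different comparisons; each ratio already sets the 2 samples of its array against each other.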
